A study of Mus musculus with 6 samples.

Results

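The control arm of this RNA sequencing series is described here on its own: the 3 libraries of mouse regulatory T cells (Treg cells) made in culture with the Fc control, out of 6 libraries in all. They were chosen by their treatment label, and no value of the other arm, which received the integrin-binding protein DEL-1 fused to Fc, entered any result. The starting cells were naive CD4+ T cells isolated from the spleen; the mice were C57BL/6, wild type and 6 weeks old. The cells were driven to the Treg fate over 3 days with 5 ng/ml TGF-β1, 40 ng/ml IL-2, 1 µg/ml anti-CD28, coated anti-CD3 (2 µg/ml, where the labels garble the first letter of the unit) and the Fc control, whose dose is not given in the sources used here. Every gene level below was thus measured under T cell receptor and CD28 stimulation, added TGF-β1 and added IL-2, with no unstimulated sample beside it, and in a bulk culture with no sort for Foxp3 stated. The labels do not say whether the 3 replicates came from separate animals or cultures, so their spread may be technical.

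Treg cells restrain immune responses and are defined by the transcription factor Foxp3. Naive CD4+ T cells turn on Foxp3 in culture when T cell receptor stimulation coincides with TGF-β, which acts through Smad proteins, and IL-2, which acts through the IL-2 receptor and STAT5. Such induced Treg cells are dividing blasts, so genes of growth, metabolism and the cell cycle are also active in them.

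The libraries held 57391981, 61967687 and 55318383 counts of reads in genes. Of 39179 gene identifiers, 16712 had 0 counts in all 3 libraries, 11576 reached 1 CPM (a count scaled to a library total of 1000000 counts) or more in every library and 69 reached 1000 CPM or more. Of the 11576, 10452 were protein-coding. No count fell on any of the 37 mitochondrially encoded genes, which could not be described. A count of 0 allows up to 3 counts, which is 0.0484 to 0.0542 CPM in these libraries, and this limit covers counting error only. CPM is used to compare a gene between libraries. TPM (counts divided by exon length and scaled to the same total in each library) is used to compare levels between genes. An order by TPM depends on the length used: with the longest transcript in place of all exons, 9 of 15 leading neighbour pairs kept their order among transcription factors and 8 of 15 in the respiratory chain. The coefficient of variation (CV) is the SD over the 3 libraries as a percent of their mean CPM. Genes at a mean of 10 CPM or more (8637) had a median CV of 3.48%, against a median of 1.77% that counting alone gives.

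The 4 marker genes chosen for these cells were all abundant. Gzmb, the granule protease granzyme B, measured 987, 997 and 965 CPM, which is 2333 ± 50.9 TPM (SD, n = 3). Il2ra, the alpha chain of the IL-2 receptor, measured 2322, 2584 and 2412 CPM, or 1455 ± 80.6 TPM. Ctla4, an inhibitory receptor for CD80 and CD86, measured 510.1, 511 and 536 CPM, or 759 ± 16.8 TPM. These genes ranked 30, 62 and 152 by TPM among the genes with a length. Per length (TPM), Gzmb was higher than Il2ra, and Il2ra higher than Ctla4, with no overlap of their ranges, while by CPM Il2ra was the highest of the 3.

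Foxp3 stood lower, at 312, 409 and 346 CPM, or 265 ± 37.0 TPM, rank 683. Replicate 2 was the highest and replicate 1 the lowest, and the CV of 13.9% was far above the 0.693% that counting alone gives. Foxp3 (ENSMUSG00000039521) spans chromosome X, 7573644 to 7595245, plus strand, in GRCm38, and its exons overlap those of Ccdc22, Ppp1r3f, Flicr and a predicted gene, so part of its reads cannot be assigned with certainty. In a bulk library, fewer Foxp3-positive cells and less Foxp3 mRNA per cell cannot be told apart. The other 3 markers have no exon overlap with another gene. Il2ra (ENSMUSG00000026770) lies on chromosome 2 from 11642807 to 11693193, Ctla4 (ENSMUSG00000026011) on chromosome 1 from 60887000 to 60915832, both on the plus strand, and Gzmb (ENSMUSG00000015437) on chromosome 14 from 56258838 to 56262260, minus strand.

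Of 41 genes listed for Treg cells, 29 reached 10 CPM and 8 stayed under 1 CPM. The costimulatory receptor Tnfrsf4 (OX40) was at 2314 ± 49.5 TPM, within the range of Gzmb. Next came Il2ra, then Tnfrsf18 (GITR) at 841 ± 41.1 and Tnfrsf9 (4-1BB) at 776 ± 37.0 TPM, whose ranges overlapped each other, and the range of Tnfrsf9 overlapped that of Ctla4. Izumo1r, the folate receptor 4 of Treg cells, measured 460.5 ± 40.8 TPM, Tgfb1 301 ± 17.9 and Icos 262 ± 4.21 TPM, the last pair with Foxp3 between them and overlapping it. The listed genes that were scarce include mediators of mature Treg cells: the cytokine Il10 was at 0.278 TPM, the ectoenzyme Entpd1 (CD39) at 2.14, the integrin chain Itgae (CD103) at 1.27 and Klrg1, a receptor of terminally differentiated cells, at 0.0144 TPM. Ikzf2 (Helios), a factor often used to mark thymus-derived Treg cells, was at 7.79 TPM. The widest spread in the list was that of Plagl1, a zinc finger factor (CV 15.05%), and the narrowest that of Ebi3, a subunit of IL-27 and IL-35 (1.07%).

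**Figure D1:**
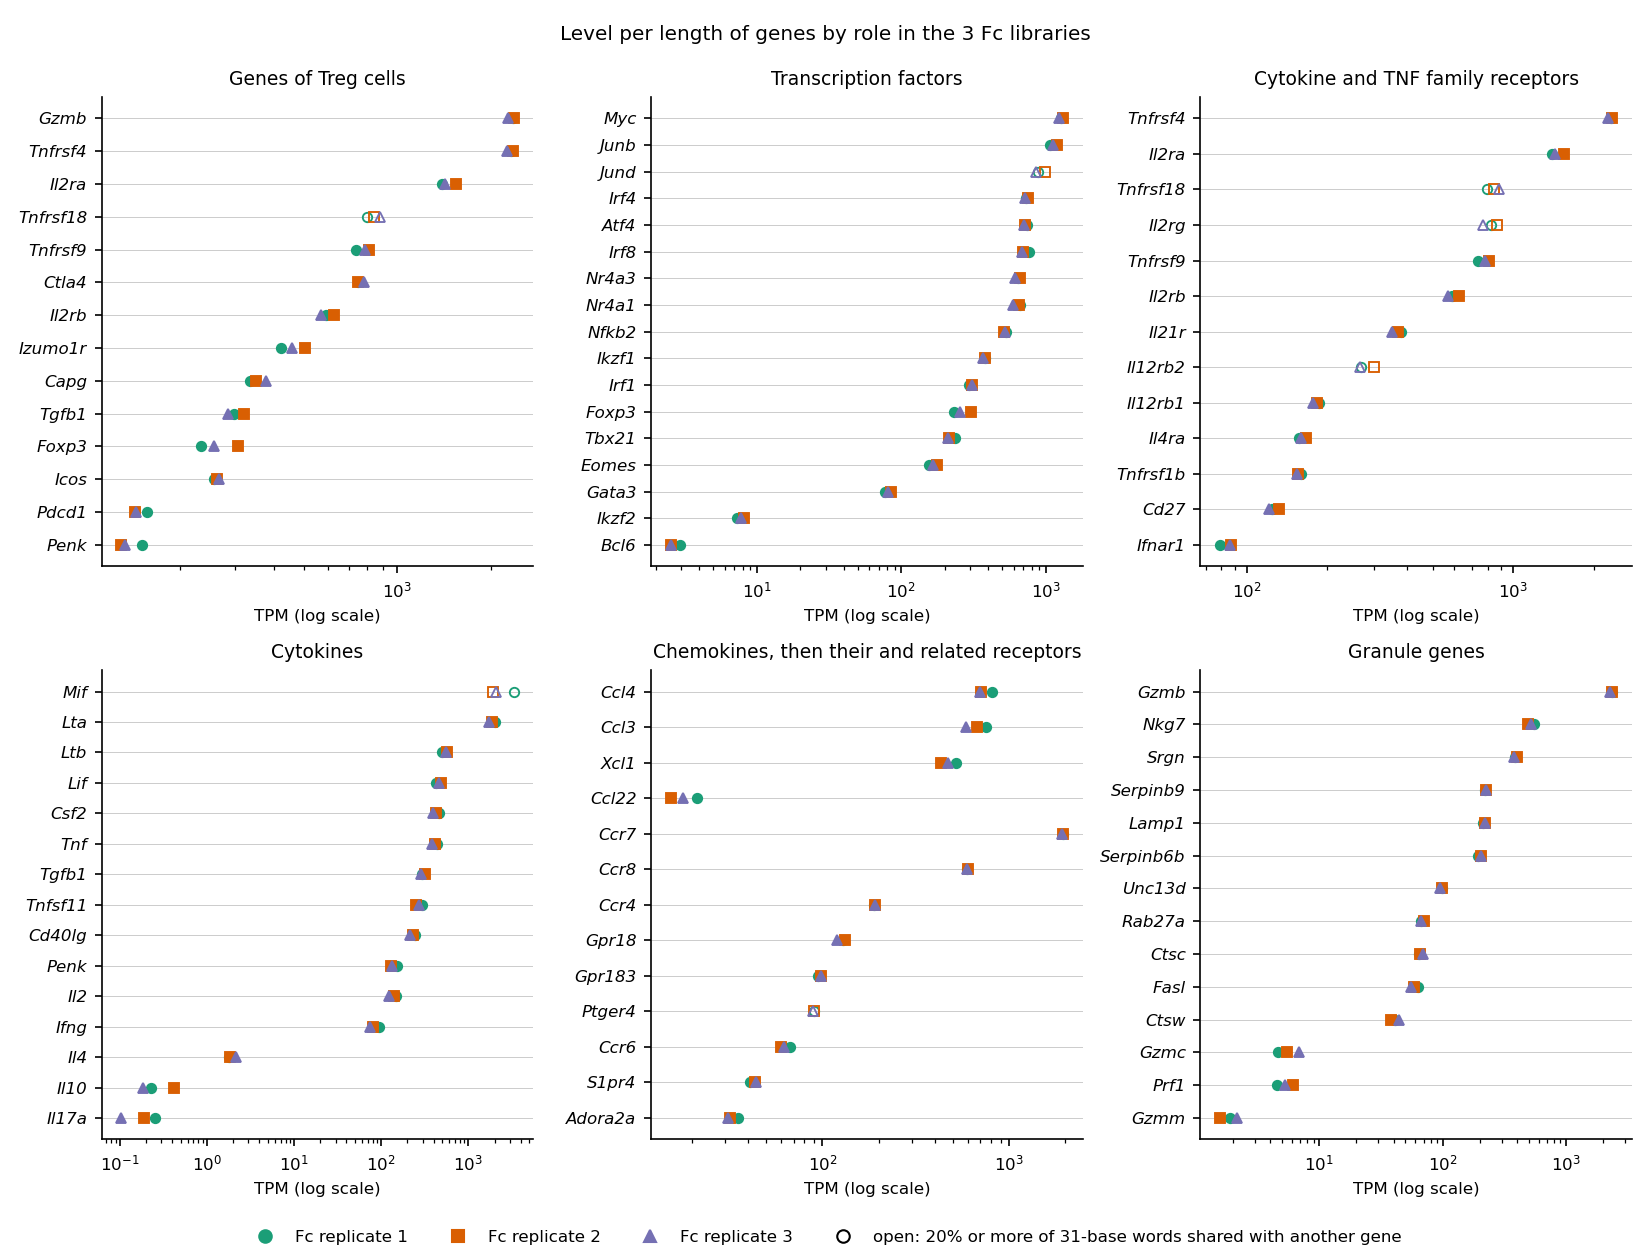
Level per length (TPM, log scale) of the leading genes of 6 groups in each of the 3 Fc libraries, 1 symbol per library, with open symbols for genes that share 20% or more of their 31-base words with another gene. The 3 symbols of a gene mostly lie close together, while Foxp3 spans 233 to 306 TPM, Mif is set apart by replicate 1, and the near-absent Il10 and Il17a scatter.

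Transcription factors of T cell activation led the 99 listed factors, 86 of which reached 10 CPM. Myc, the driver of growth and biosynthesis, was at 1274 ± 45.5 TPM, followed by the AP-1 proteins Junb (1132 ± 59.0) and Jund (913 ± 70.1), with no overlap between Myc and Junb. Irf4, which partners with AP-1 in activated T cells, Atf4, the factor of the amino acid response, and Irf8 had overlapping levels of 735 ± 17.7, 725 ± 16.8 and 715 ± 40.0 TPM. Nr4a3 and Nr4a1, nuclear receptors induced by T cell receptor signals, overlapped each other at 641 ± 24.0 and 637 ± 40.8 TPM. Jund, which shares 31.3% of its 31-base words with another gene, is less certain. Foxp3 was number 18 of the 99 by TPM, between Klf6 (269.8 TPM) and Nfkb1 (254 TPM), and its range covered both of theirs. With the longest transcript as length, Foxp3 was number 20.

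Factors that define other helper T cell fates were present at unequal levels. Tbx21 (T-bet, the Th1 factor) was at 219.8 TPM and its relative Eomes at 166 TPM. Gata3 (Th2) was at 81.2, Bcl6 (follicular helper) at 2.69 and Maf at 2.24 TPM. Among the factors that act on the Foxp3 locus, Cbfb, the shared partner of the Runx proteins, was at 201 TPM, Runx3 at 92.8, Runx1 at 18.5 and Runx2 at 4.31 TPM. Stat5a and Stat5b, which carry the IL-2 signal, were at 174 and 167 TPM. Smad2 and Smad3, which carry the TGF-β signal, were at 21.5 and 17.7 TPM, and Smad4, their partner, at 54.6 TPM. Klf2, a factor of quiescent and recirculating T cells, had the largest CV of the list (15.5%, replicate 2 highest) and Stat6, which carries the IL-4 signal, the smallest (0.656%).

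The chains of the IL-2 receptor were the 3 highest of 43 listed cytokine receptors, with Il2ra followed by the common gamma chain Il2rg (821 ± 52.2 TPM) and Il2rb (595 ± 29.2 TPM). None of their ranges overlapped. Il2rg shares 42.7% of its 31-base words with another gene and overlaps the exons of Gm20489, so its level is less certain. Il21r was at 366 ± 14.1 TPM, and the IL-12 receptor chains Il12rb2 and Il12rb1 at 278 ± 19.4 and 182 ± 4.59 TPM. The TGF-β receptors Tgfbr1 and Tgfbr2 were at 43.6 ± 2.90 and 32.8 ± 0.886 TPM, an order of magnitude below the IL-2 receptor chains. The IL-33 receptor Il1rl1 (0.0891 TPM) and Il23r (0.120 TPM) were near 0, and Il22ra1 was at 0. Il10ra had the widest spread (CV 13.8%, lowest in replicate 1) and Il18rap the narrowest (0.985%).

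Among 22 receptors of the TNF family, Tnfrsf4, Tnfrsf18 and Tnfrsf9 stood apart from the next member, Tnfrsf1b (TNFR2), at 156 ± 2.40 TPM. Tnfrsf1b also had the smallest CV of this list (1.16%). Cd27 followed at 126 ± 5.25 and Tnfrsf13b at 90.01 ± 4.69 TPM, and Edar was at 0. Tnfrsf18 shared the largest CV with Tnfrsf13b, at 5.44%, and shares 21.2% of its words with another gene.

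Of 28 genes listed for costimulation and inhibition (receptors, their ligands and Laptm5), Ctla4 was the highest. Next was Laptm5, which lowers surface T cell receptor, at 591 ± 44.0 TPM (CV 6.89%, the largest of the list). Cd5, which dampens T cell receptor signals, followed at 547 ± 32.2 TPM and overlapped Laptm5. Cd6 was at 297 and Ly9 at 195 TPM, and the inhibitory receptor Pdcd1 (PD-1) was at 148 ± 7.505 TPM. Cd28, the costimulator engaged in the culture, was at 120 ± 2.01 and the inhibitory ligand Cd274 (PD-L1) at 119 TPM, and their ranges overlapped. Btla had the smallest CV (0.669%). The inhibitory receptors Tigit (77.4 TPM) and Lag3 (37.9 TPM) were lower, and Havcr2 (Tim-3) was at 0.643 TPM.

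Receptors that guide T cells to lymph nodes and skin were high and stable. Ccr7, the receptor for lymph node entry, measured 1126, 1123 and 1122 CPM, or 1935 ± 14.3 TPM, and its CV of 0.168% was below the 0.391% that counting alone gives. Ccr8, a receptor of effector Treg cells, measured 206, 207 and 205 CPM, or 597 ± 4.74 TPM. Ccr4 was at 191 ± 1.79 TPM. These 3 levels did not overlap in any library. Next in the list of chemokine and lipid mediator receptors were Gpr18 (127 TPM), Gpr183 (96.7 TPM), the prostaglandin receptor Ptger4 (89.7 TPM) and Ccr6 (63.0 TPM). S1pr1, the receptor for exit from lymphoid tissue, had the largest CV (10.8%) and a level of 15.1 TPM, and Cxcr3 and Cxcr4 were at 11.2 and 11.005 TPM. Ccr1, Cxcr1 and Cxcr2, receptors of myeloid cells, were at 0 in every library.

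Among 26 adhesion molecules Cd2 led at 1724 ± 82.3 TPM. The LFA-1 chains Itgb2 and Itgal were at 455 ± 5.89 and 340.2 ± 17.4 TPM, and the selectin ligand Selplg was at 433 ± 23.3 TPM, overlapping Itgb2. Cd48 and Spn were at 361 and 337 TPM. Itgb2 had the smallest CV (1.28%). The chains of the αvβ3 integrin, Itgav and Itgb3, were at 29.8 and 20.5 TPM.

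Cytokine genes were led by Mif and by members of the TNF family. Lta, which encodes lymphotoxin alpha, measured 829, 761 and 713 CPM, or 1893 ± 154 TPM, and its partner Ltb was at 539 ± 36.2 TPM. Mif, macrophage migration inhibitory factor, was listed at 2444 ± 766 TPM, but it shares 46.1% of its words with other genes and its libraries, at 724, 421 and 457 CPM, gave the largest CV of the list (30.97%). Its range overlapped that of Lta. Lif (457 ± 31.4 TPM), Csf2 (424 ± 34.3 TPM) and Tnf (411 ± 27.1 TPM) were next and overlapped their neighbours. The T cell growth factor Il2 measured 49.4, 46.5 and 42.0 CPM, or 137 TPM, in cells that also received IL-2. Ifng, the Th1 cytokine, was at 83.2 TPM, Il13 at 30.5, Il4 at 1.93 and Il17a at 0.182 TPM, and Il7 was at 0 in every library. Of the 26 cytokine genes at 10 CPM or more, 14 were highest in replicate 1 and 3 in replicate 3. Over all 8637 genes, 33.3% were highest in replicate 1 and 36.0% in replicate 3.

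Only 4 of 18 chemokine genes reached 10 CPM. Ccl4 and Ccl3, inflammatory chemokines, measured 740.3 ± 61.4 and 671 ± 84.8 TPM with overlapping ranges, and Xcl1, which attracts cross-presenting dendritic cells, 475 ± 42.4 TPM. Ccl22, a ligand of Ccr4, was at 18.2 ± 2.90 TPM. Ccl4 measured 156, 137 and 137 CPM and Ccl3 169, 150.1 and 133 CPM. All 4 were highest in replicate 1, against 33.3% of all 8637 genes at 10 CPM or more. Their log2 differences of replicate 1 from the mean of the other replicates were 0.185 (Xcl1) to 0.335 (Ccl22). The CVs ran from 7.91% (Ccl4) to 15.8% (Ccl22). Ccl2 was at 0 in every library.

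Gzmb was the only granzyme at a high level. Gzmc was at 5.64 TPM, Gzma at 0.817 and Gzmk at 0.0715, Gzme, Gzmg and Gzmn were at 0, and the pore protein Prf1 (perforin), through which granzymes enter target cells, was at 5.30 TPM. Other parts of the granule machinery were present: Nkg7 at 521 ± 30.02 TPM, the proteoglycan Srgn at 388 ± 10.9, the granzyme B inhibitor Serpinb9 at 222 ± 2.49, Lamp1 at 218, Serpinb6b at 201 and the release factor Unc13d at 97.3 TPM. Serpinb9 had the smallest CV (1.48%) and Ctsw, a cathepsin, the largest (7.98%).

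The T cell receptor list was led by the constant regions Trac (1468 ± 71.9 TPM) and Trbc2 (798 ± 26.9 TPM). Lck, the kinase that starts the signal, was at 619 ± 11.1, Cd4 at 553 ± 30.05, and the adaptor Lat at 535 ± 15.1 TPM, the last pair overlapping. Ptpn6, a phosphatase that dampens the signal, was at 507 TPM and overlapped Lat. Of 34 members 33 reached 10 CPM, with CVs between 0.889% (Plcg1) and 9.34% (Themis). Trbc2 and Trbc1 share 48.5% and 45.4% of their words with another gene and cannot be separated with certainty.

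Genes of the TGF-β pathway were lower. Tgfb1 itself led its list of 29, followed by Furin, which processes TGF-β (140.1 ± 6.27 TPM), Ski (120.4 ± 7.07) and Lrrc32 (GARP, 114 ± 7.33). Pmepa1 and Skil, negative feedback genes of the pathway, were at 84.3 and 59.0 TPM with the narrow CVs of 1.64% and 1.43%. Genes listed for IL-2 signalling and its feedback were higher, but the part of IL-2 in these levels was not tested. After Lta, Il2ra, Myc and the receptor chains came Mcl1 (380 ± 7.90 TPM), Pim1 (329 ± 37.2) and Pim2 (286 ± 16.8). The feedback inhibitors Cish and Socs1 were at 232 and 209 TPM. Pim1 had the largest CV of that list (11.2%, replicate 2 highest) and Cish the smallest (0.941%). Among regulators of chromatin at the Foxp3 locus, Hdac1 (335 TPM), the maintenance methylation proteins Uhrf1 (310 TPM) and Dnmt1 (299 TPM) and Hdac7 (219 TPM) led. Tet3 and Tet2, enzymes that remove DNA methylation, were at 30.3 and 9.94 TPM, and Tet1 at 0.447 TPM. Of survival genes Bcl2l1 (Bcl-xL) was at 415 ± 11.1 TPM, above Mcl1, and Bcl2 at 36.1 TPM.

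The most abundant messages served protein synthesis, the cytoskeleton, antigen presentation and protein folding. By TPM the highest was Eef1a1, the elongation factor that brings tRNA to the ribosome (11344 ± 791), then the ribosomal protein Rplp1 (10399 ± 301), the actin Actb (10169 ± 117), B2m, the light chain of class I molecules (9139 ± 478), and the chaperone Hsp90ab1 (6230.0 ± 135). Eef1a1, Hspa8 and Actg1 share 74.8%, 61.2% and 57.1% of their words with other genes. Rps15, Eef2, Rplp0, Rpl4 and Hspa8 completed the top 10 protein-coding genes, between 4733 and 5443 TPM. Actg1, Eif5a, Rpl8, Tmsb10, Rps3a1, Tmsb4x, Rpl41, Pfn1, Rps4x and Npm1 followed, between 2778 and 4269 TPM. The 85 ribosomal protein genes held 10.6 ± 0.316% of all TPM. By CPM, which favours long messages, Eef1a1 held 8299.9, Actb 7997 and Hspa8 5971, and the 100 most abundant genes held 16.5 ± 0.0995% of counts.

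Of genes outside the protein-coding and pseudogene classes of the annotation, the T cell receptor constant segments Trac and Trbc2 led by TPM. These segments encode protein but have a class of their own. Among the 10 highest were also Rn7sk (684 TPM), the immunoglobulin constant region Ighm (658 TPM), Cct6a (439 TPM) and 2410006H16Rik (387 TPM). Rn7sk measured 50.1, 69.9 and 79.6 CPM (CV 22.7%) and shares 72.8% of its words with another gene, so its level is less certain. The annotation, not these data, classes Cct6a and 2410006H16Rik as processed transcripts. The rest were 4 annotated microRNA or snoRNA genes of 74 to 115 bases. For those 4 genes TPM divides a few CPM (8.34 to 17.9 CPM) by a very short length, and polyA-selected libraries do not measure mature small RNAs.

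Aerobic glycolysis, the fast use of glucose with lactate as its product, was strongly represented. Ldha, which makes lactate, was at 2547 ± 94.5 TPM, Pkm at 2207 ± 101, Aldoa at 1795 ± 52.3, Pgk1 at 1359 ± 137 and Tpi1 at 1035 ± 86.7 TPM. These 5 did not overlap. Upstream steps were lower: the glucose transporter Slc2a1 was at 183, Hk1 at 115, Pfkl at 107 and Hk2 at 102 TPM, and Hk2 had the smallest CV of the list (1.19%). The lactate exporters Slc16a1 and Slc16a3 were at 149.9 and 114 TPM, and their partner Bsg at 656 TPM.

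Gapdh, the textbook housekeeping gene, was the least reproducible member of glycolysis. It measured 327, 257 and 498 CPM, a CV of 34.4%, with replicate 3 the highest. Pgam1 measured 200.3, 99.7 and 162 CPM (CV 33.0%), with replicate 2 the lowest. Both share sequence with other genes (31.8% and 42.1% of their words), as do 9 of the 22 glycolysis genes at 10 CPM or more, Ldha, Pkm, Aldoa and Pgk1 among them. The largest CV among the 13 that share less than 20% was 13.7%, at the glucose transporter Slc2a3.

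**Figure D2:**
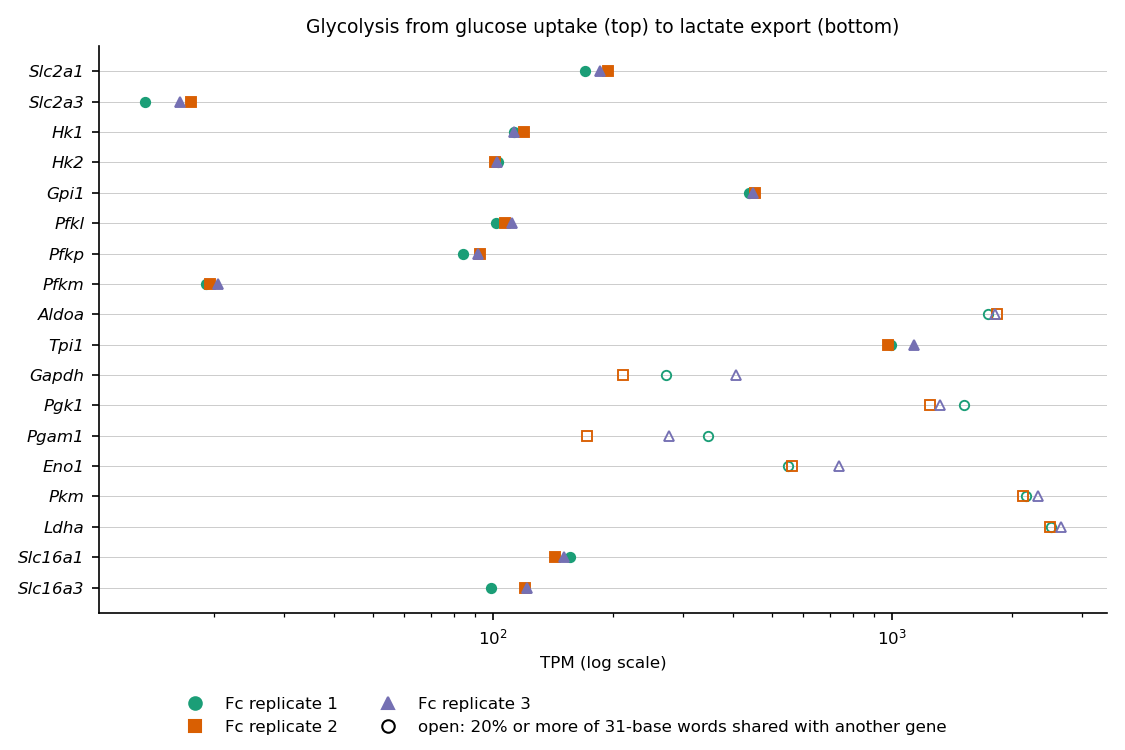
Level per length (TPM, log scale) of glycolysis genes in pathway order in each of the 3 Fc libraries. The highest levels are those of Ldha, Pkm and Aldoa, and the widest spreads are those of Gapdh and Pgam1, whose open symbols mark 20% or more of 31-base words shared with another gene.

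Mitochondrial metabolism had a flatter profile. Of the tricarboxylic acid cycle, Mdh2 (391 ± 13.0 TPM) was highest, and also high were Sdhd (275), Cs (232), Mdh1 (212) and Sdhb (201 TPM), and all 20 members reached 10 CPM. Idh3g had the smallest CV (0.881%) and Pcx, which feeds the cycle from pyruvate, the largest (11.2%). Of the respiratory chain, the ATP synthase subunits Atp5b (1293 ± 31.3 TPM) and Atp5a1 (1188 ± 51.1) led with Cox8a (1052 ± 14.5), then Atp5c1 (497 ± 0.430), Cox4i1 (447 ± 25.4) and Cox7a2 (349.9 ± 18.4), all 6 without overlap. Cycs, cytochrome c, had the largest CV (21.1%, with 32.0% of its words shared) and Atp5j the smallest (0.582%).

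Anabolic genes were led by polyamine and serine synthesis. Odc1, the rate-limiting enzyme of polyamine synthesis, was at 864 ± 75.5 TPM, and Srm, the next enzyme, at 655 ± 36.3 TPM. Phgdh (616 ± 15.2) and Shmt2 (571 ± 30.5), of serine and one-carbon metabolism, and the amino acid transporters Slc7a5 (378 ± 15.4) and Slc1a5 (363 ± 15.8) followed. Odc1 and Phgdh share 52.0% and 74.1% of their words with another gene. Srm and Phgdh overlapped, as did Phgdh and Shmt2, and Slc7a5 and Slc1a5. Odc1 also had the largest CV of the list (9.24%). The serotonin enzyme Tph1 was at 0.

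Lipid synthesis was led by the desaturase Scd2 at 877 ± 10.3 TPM, with the sterol enzymes Idi1 (427 ± 13.0) and Cyp51 (335 ± 6.66), their regulator Srebf2 (289 ± 5.31), Fasn (281 ± 13.5) and Acly (275 ± 1.42 TPM), the last 3 with overlapping neighbours. Acly had the smallest CV (0.258%) and the exporter Abcg1 the largest (9.10%). Of redox and iron genes Txn1 (thioredoxin) was at 1246 ± 92.2, Gpx1 at 580 ± 9.82, and the transferrin receptor Tfrc at 494 ± 8.21 TPM, while the iron exporter Slc40a1 was at 0. Prdx1 was at 398, Ftl1 at 396 and Fth1 at 266 TPM, with the smallest CV at Gpx1 (1.62%) and the largest at Txnip (8.01%).

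Cell cycle genes were high and among the least variable. Of 40 listed, 38 reached 10 CPM, and their median CV of 2.22% compares with 3.48% over all genes at that level. Pcna, the replication clamp, was at 906 ± 24.1 TPM, Ccnd2, the G1 cyclin, at 557 ± 9.07, Cdk4 at 459 ± 6.01, the helicase subunit Mcm3 at 437 ± 1.02, Top2a at 386 ± 5.50 and Ube2c at 384 ± 10.2 TPM. Mki67, the proliferation marker, was at 364 ± 16.6 TPM. The smallest CV was at Ccne2 (0.324%) and the largest at Cdkn2c, an inhibitor of Cdk4 and Cdk6 (9.51%). Chaperones of the stress list, after Hsp90ab1 and Hspa8, were Calr (1623 ± 50.4 TPM), Hsp90aa1 (1460 ± 37.9), Hspd1 (1406 ± 83.9) and Pdia3 (936 ± 7.14). Pdia3 had the smallest CV (0.737%) and Dnaja1 the largest (19.1%).

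Markers of other cell types were at or near 0 with a few exceptions. The 8 T cell markers summed to 4250 to 4491 CPM. Summed over its list, neutrophil markers reached at most 0.199 CPM, mast cell and basophil markers 0.0904, erythroid markers 0.468, platelet markers 1.5004, gamma-delta T cell markers 1.46, plasma cell markers 9.01, macrophage and monocyte markers 11.3 and the CD8 chains 10.4 CPM. The B cell list summed to 363 to 382 CPM, but Ighm alone held 358, 377 and 358 CPM of that, while Cd79a was at 2.21, 1.74 and 1.77 CPM. The NK cell list summed to 192 to 218 CPM, nearly all of it Eomes, which T cells also express, and Ncr1 was at 0. In the same way Cd74 (146, 150.4 and 147 CPM) held most of the dendritic cell sum of 159 to 165 CPM, with Zbtb46 at 8.59, 8.78 and 8.50 CPM, H2-Ab1 at 3.08, 4.65 and 3.92 CPM and both Clec9a and Siglech at 0, and Pecam1 most of the endothelial sum of 57.9 to 68.4 CPM, with Cdh5 at 0. Xist was at 934, 976 and 899 CPM and the Y-linked Eif2s3y, Kdm5d and Uty were at 0 in all 3 libraries, while the Y-linked Ddx3y had 1, 5 and 2 counts.

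Spread between the libraries was small for most genes. The middle 50% of the 8637 genes at 10 CPM or more had CVs between 2.15% and 5.23%, 90% were at or below 7.53%, and 1566 genes (18.1%) had a CV below the one counting alone gives. A CV of 20% or more was found for 123 genes, of which 106 share at least 20% of their 31-base words with another gene, although only 1183 of the 8637 genes do. Among genes that share 50% or more, 17.9% had such a CV, and among those that share 20% to 50% it was 3.96%. Among those that share 5% to 20% it was 0.690% (10 genes). From 1% to 5% it was 0, and below 1% it was 0.0688% (3 genes). Abundant genes of this kind were Ptma (927, 839 and 1703 CPM), Tpt1 (1885, 1058 and 1977 CPM), Eif4a1 (1127, 1646 and 919 CPM) and Actg1 (2252, 3771 and 3975 CPM), next to Gapdh and Mif. How multi-mapped reads were counted is not given in the sources used here, and the part of shared sequence in these spreads was not tested.

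Among genes that share less than 20%, Ncoa4, a nuclear receptor coactivator and the receptor for ferritin turnover, stood out at 79.6, 24.9 and 79.4 CPM (CV 51.5%), with replicate 2 alone low. Cebpb, a stress and cytokine response factor, measured 8.21, 16.5 and 9.60 CPM (39.0%). Rybp, of the Polycomb complex, measured 51.9, 52.5 and 25.3 CPM (35.9%), with replicate 3 alone low. Also wide were Agk (30.2%), the splicing protein Snu13 (28.7%), Tgm2 (28.3%), Sap18 (26.2%) and the cold-induced Rbm3 (23.4%), and the 20 widest genes of this kind ended at a CV of 18.2% with Stra6. Others of the 20 were Mx1, Mreg, Psmb3, Tomm20, Arhgef11, Ppia, Rtp4, Il13 and Lamtor5. Several came close to the 20% limit of shared words: Ppia (19.3%), Lamtor5 (18.7%), Sap18 (18.3%), Rbm3 (17.4%), Snu13 (17.3%) and Tgm2 (16.1%). Rybp shared 11.4% and Cebpb 0.407%, while Ncoa4, Mreg, Il13 and Stra6 shared 0%. Of the 20, 12 were lowest in replicate 1, against 33.5% of all genes, and they include Mx1 and Rtp4 of the interferon-stimulated set. The 10 narrowest genes, Jpt2, Otub1, Slc4a8, Trappc10, Nr2c1, Rassf5, C2cd5, Vps29, Wdhd1 and Ino80c, had CVs of 0.0363% to 0.139%, all below their counting CVs of 0.850% to 3.32%. Jpt2, for example, measured 99.5 CPM in every library.

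**Figure D3:**
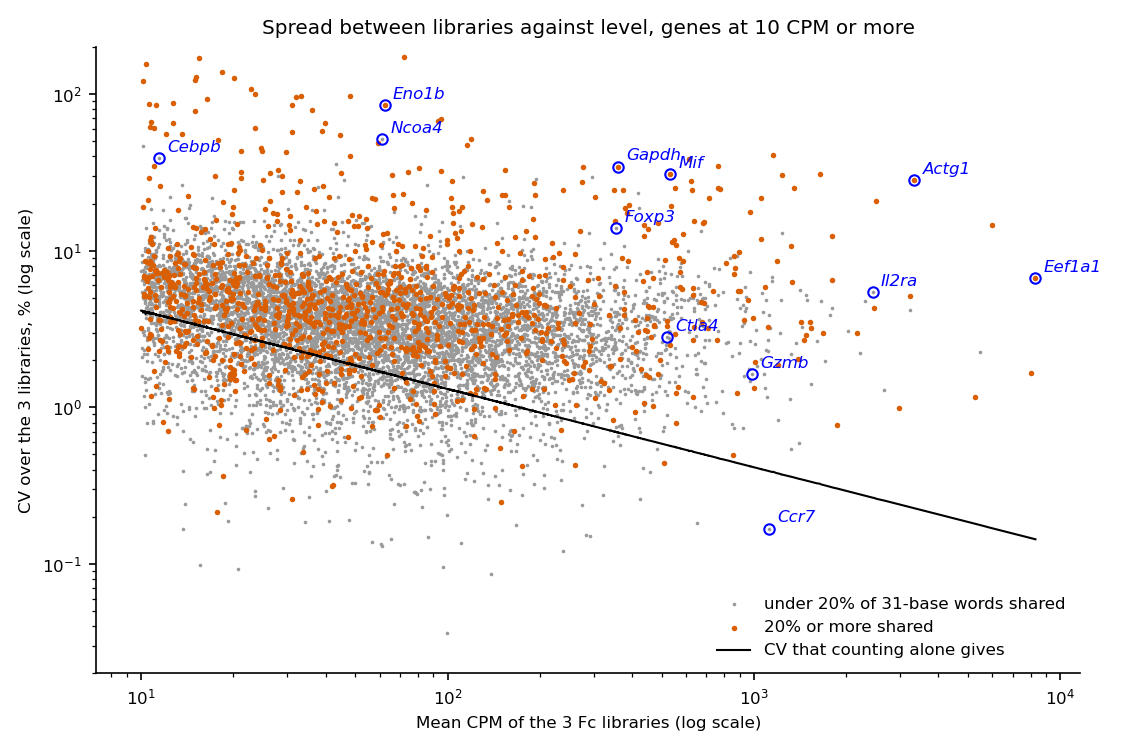
CV over the 3 Fc libraries (%, log scale) against mean CPM (log scale) for the 8637 genes at 10 CPM or more, orange for genes that share 20% or more of their 31-base words with another gene, and a line for the CV that counting alone gives. Most points above a CV of 20% are orange, Ncoa4 and Cebpb are not, and Ccr7 lies below the counting line.

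The 3 libraries differed in whole groups of genes by small steps. The clearest was the set of interferon-stimulated genes, which type I and type II interferons induce through STAT proteins and other factors that bind the interferon-stimulated response element (ISRE). Of 36 such genes at 10 CPM or more, 34 were lowest in replicate 1, against 33.5% of all 8637 genes, and none was highest there. Their median log2 difference of replicate 1 from the mean of the other replicates was -0.22, against 0.00 for all genes. The exceptions, Bst2 and Igtp, were lowest in replicate 2. Without the members that share sequence, 31 of 33 were lowest in replicate 1.

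Mx1, an antiviral GTPase, measured 32.8, 50.7 and 48.0 CPM. Rtp4 measured 23.8, 34.3 and 32.3 CPM, and Ifit3, an antiviral RNA-binding protein, 10.5, 16.1 and 16.1 CPM. Replicate 1 was low and replicates 2 and 3 were close together in each of these 3 genes, which have the widest spread of the set (CVs of 21.96%, 18.5% and 22.5%). Ifit3 shares 61.8% of its words with another gene, as the Ifit genes are close relatives. The most abundant members were Ifi27l2a (1772 ± 190 TPM), the GTPase Igtp (1165 ± 24.4), the tetherin gene Bst2 (716 ± 37.2), Gbp2 (663 ± 48.0) and the ubiquitin-like Isg15 (423 ± 54.6 TPM). Ifi27l2a measured 212, 245 and 265 CPM and Isg15 80.6, 95.1 and 106 CPM.

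Genes of class I antigen presentation shared the low replicate 1, but more of them were highest in replicate 3 (12 of 17) than in replicate 2 (5 of 17). Over all 8637 genes these shares were 36.0% and 30.7%. Of 17 at 10 CPM or more, 16 were lowest in replicate 1, against 33.5% of all genes. Of the 14 outside the interferon list, 13 were lowest there, though a gene outside that list may still respond to interferon. B2m, the exception, was lowest in replicate 3 (2292, 2423 and 2204 CPM). Psme2, a proteasome activator subunit, measured 226, 336 and 346 CPM, the largest CV of the list (21.96%), with 66.2% of its words shared. H2-K1 and H2-D1, the class I heavy chains, had levels of 1387 ± 18.1 and 1325 ± 15.3 TPM, and H2-D1 had the smallest CV (1.33%). Of the 17 genes, 8 share 20% or more of their words with another gene, and 8 of the 9 that do not were lowest in replicate 1. Beside these counts, the summed markers of macrophages and monocytes were 10.2, 11.3 and 10.95 CPM and those of dendritic cells 159, 165 and 162 CPM, and their part in the result was not tested.

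**Figure D4:**
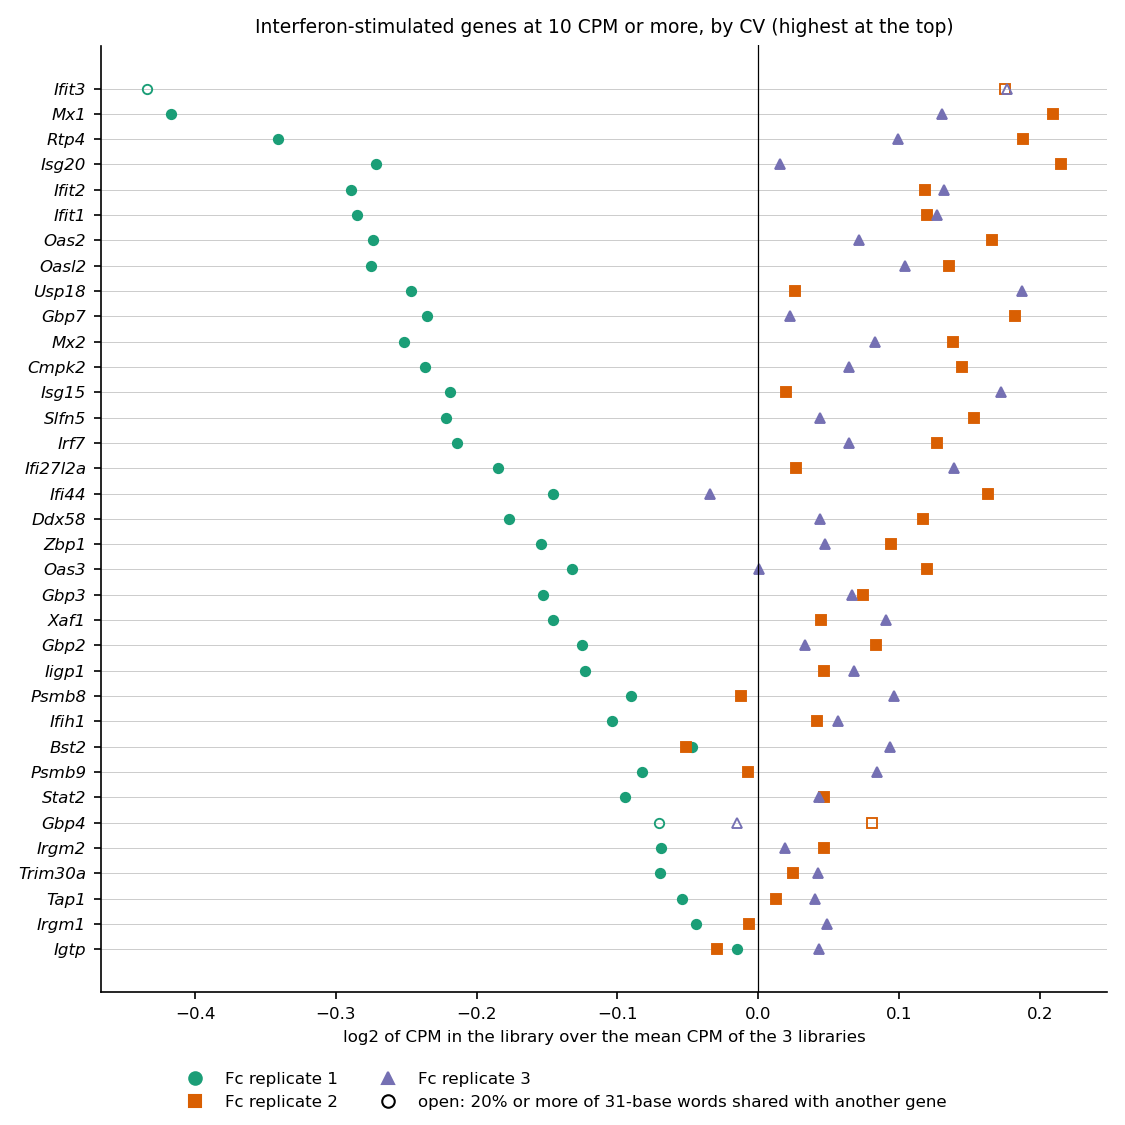
The log2 ratio of CPM in each Fc library to the mean of the 3 libraries, for 35 interferon-stimulated genes at 10 CPM or more, ordered by CV, with open symbols for genes that share 20% or more of their 31-base words. The circles of replicate 1 lie furthest left in 33 of the 35 genes shown.

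The promoters of the interferon-stimulated genes were read for the ISRE core (GAAA, any 2 bases, then GAAA) on either strand. The window was the 250 bases before the start site (RefSeq, GRCm38.p6). A window was at hand for 26 of the 36 genes, and 14 of them (53.8%) held the motif, against 3.46% of 27025 genes with a window and 3.41% of the 6774 such genes at 10 CPM or more. The STAT motif TTCNNNGAA was in 7 of the 26 (26.9%), against 8.13% of all genes. Shown are 4 members with the motif and a low replicate 1 (Ifit3, Ifit1, Isg15, Slfn5), 1 with the motif that was not lowest there (Bst2), and 1 without it that was low in replicate 1 all the same (Oasl2, 44.0, 58.5 and 57.2 CPM). Capitals mark the motif on the gene's strand or its reverse complement, and each sequence runs 5′ to 3′ on the gene's strand.
Ifit3, chr19:34583279-34583528, plus strand: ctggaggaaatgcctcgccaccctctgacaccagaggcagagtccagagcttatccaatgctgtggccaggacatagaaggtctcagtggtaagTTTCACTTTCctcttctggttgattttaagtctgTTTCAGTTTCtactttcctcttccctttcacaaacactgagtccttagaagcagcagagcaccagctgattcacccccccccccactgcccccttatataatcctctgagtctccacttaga
Ifit1, chr19:34640639-34640888, plus strand: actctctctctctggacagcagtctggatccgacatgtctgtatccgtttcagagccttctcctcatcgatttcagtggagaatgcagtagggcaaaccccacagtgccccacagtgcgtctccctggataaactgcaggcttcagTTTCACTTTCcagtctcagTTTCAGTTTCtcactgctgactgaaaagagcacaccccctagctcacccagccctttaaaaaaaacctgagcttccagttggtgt
Isg15, chr4:156200819-156201068, minus strand: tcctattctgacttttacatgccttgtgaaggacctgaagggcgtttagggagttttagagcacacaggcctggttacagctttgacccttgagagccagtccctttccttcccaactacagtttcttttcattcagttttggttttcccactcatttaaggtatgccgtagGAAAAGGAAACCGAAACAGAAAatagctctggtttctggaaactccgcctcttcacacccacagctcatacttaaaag
Slfn5, chr11:82951852-82952101, plus strand: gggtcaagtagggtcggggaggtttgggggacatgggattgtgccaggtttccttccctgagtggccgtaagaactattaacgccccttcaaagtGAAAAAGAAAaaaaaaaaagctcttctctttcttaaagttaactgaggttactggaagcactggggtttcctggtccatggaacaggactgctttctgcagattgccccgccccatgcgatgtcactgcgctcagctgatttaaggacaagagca
Bst2, chr8:71537473-71537722, minus strand: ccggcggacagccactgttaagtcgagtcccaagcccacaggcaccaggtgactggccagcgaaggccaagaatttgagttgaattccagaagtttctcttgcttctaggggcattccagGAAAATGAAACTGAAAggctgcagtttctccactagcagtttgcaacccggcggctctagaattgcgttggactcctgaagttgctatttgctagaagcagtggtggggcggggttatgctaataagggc
Oasl2, chr5:114896684-114896933, plus strand: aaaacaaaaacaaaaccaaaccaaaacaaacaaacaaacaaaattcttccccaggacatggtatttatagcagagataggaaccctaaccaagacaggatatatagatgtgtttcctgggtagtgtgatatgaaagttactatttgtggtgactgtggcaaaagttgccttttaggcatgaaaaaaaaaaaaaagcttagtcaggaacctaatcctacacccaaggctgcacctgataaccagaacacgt
Ifit3 and Ifit1 each hold 2 separate matches, both on the reverse strand, Bst2 holds 2 and Isg15 3 that overlap, and Slfn5 holds 1. A match of letters is a description of the window and no evidence of binding, and the absence of these letters in Oasl2 says nothing about the factors that act there.

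Respiratory chain genes showed another order. Of 34 at 10 CPM or more, 28 were highest in replicate 3 and 27 lowest in replicate 2, against 36.0% and 35.8% of all genes. The steps were small, with a median log2 difference of 0.07 for replicate 3 from the others. Cox4i1, for example, measured 198, 194 and 218 CPM. Ribosomal protein genes went the same way, with 60 of 81 highest in replicate 3, but 66 of the 81 share 20% or more of their words with another gene and their median CV was 6.86%. Both groups have short exon lengths (medians of 2036.5 and 1781 bases against 4661.5), and gene length itself moved with the libraries: among the shortest 25% of all genes 49.2% were highest in replicate 3, among the longest 25% of genes it was 25.1%. Within the shortest 25%, 21 of 25 respiratory chain genes (84.0%) and 51 of 65 ribosomal protein genes (78.5%) were highest in replicate 3. GC content moved with the libraries too, with 45.9% of genes with the lowest GC content (25% of genes) and 26.0% of those with the highest being highest in replicate 3. The part of length and GC content in these patterns was not tested.

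Transcription factors went the other way, with 50 of 86 highest in replicate 2 and 48 lowest in replicate 3, against 30.7% of all genes for each. Among the longest 25% of genes, 21 of 31 factors (67.7%) were highest in replicate 2, against 39.9% of all genes of that length. The difference was smaller among the shortest 25%, with 5 of 16 factors (31.25%) against 23.8% of all genes of that length. Cytokine receptors were highest in replicate 2 in 18 of 27 cases, with Il2ra, Il2rb and Il2rg among them. Genes of amino acid, polyamine and folate metabolism were highest in replicate 1 in 19 of 31 cases and translation factors in 18 of 29, against 33.3% of all genes. Genes of glycolysis were highest in replicate 3 in 13 of 22 cases, against 36.0% of all genes. Of the 22, 13 were lowest in replicate 1 and none in replicate 3, against 33.5% and 30.7% of all genes. Among the 13 glycolysis genes that share less than 20% of their words, 10 were lowest in replicate 1 and 7 highest in replicate 3. Of 33 T cell receptor genes, 12, 10 and 11 were highest in replicates 1, 2 and 3, while 6, 11 and 16 were lowest there.

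**Figure D5:**
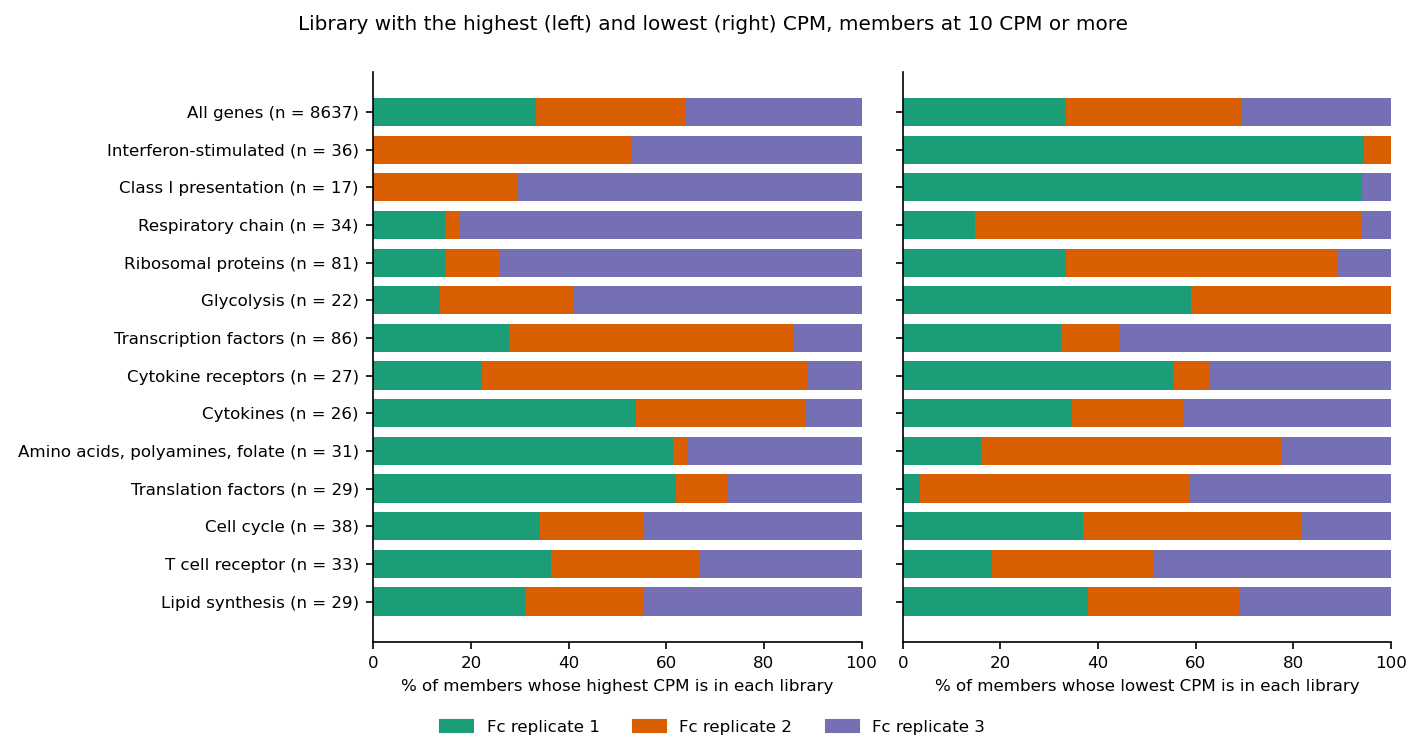
Share of the members of each gene list (at 10 CPM or more) whose highest CPM (left) or lowest CPM (right) falls in each Fc library, in percent, with all 8637 genes on the top bar. Interferon-stimulated and class I genes are lowest almost only in replicate 1, and respiratory chain and ribosomal protein genes are mostly highest in replicate 3.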

How the data were processed

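PolyA RNA was sequenced from the cultures; only the 3 Fc control libraries were used here. The authors deposited whole-number read counts per Ensembl gene, 1 table per sample; STAR, HTSeq 0.6.0 and the GRCm38 (mm10) build are named per the submitters' processing notes. Not given in the sources used here: the annotation release, the strand setting and the treatment of multi-mapped reads, so genes with shared sequence or overlapping exons are uncertain. Symbols were matched for 37693 of 39179 identifiers with the GRCm38 annotation (GENCODE M21), and unmatched ones held 0.300% to 0.309% of counts. CPM divides by the library total; TPM divides by the union of exons first. Sequence sharing is the percent of the 31-base words of a gene's longest transcript that are found in the longest transcript of another gene. Other transcripts and copies outside the annotation were not searched, so a low percent does not exclude shared sequence. Spread was described for genes at a mean of 10 CPM or more. With 1 group there was no test. By rule, the text names the 4 markers and the 20 protein-coding genes highest by TPM. It also names the 10 highest by TPM outside that class, pseudogenes aside, and the 10 highest by CPM. Of each list it names up to 6 leading members and the widest, narrowest and absent ones. The 20 widest and 10 narrowest protein-coding genes that share little sequence complete the rule. Other list members are named for their known role and were chosen after their values were seen. Members and lists were chosen with earlier results of these data known. The libraries differed beyond sampling noise (chi-square per degree of freedom 19.9 to 22.2), so none was a copy of another. This value cannot tell technical repeats from separate cultures or animals. edgeR 4.0.16 (R 4.3.3) gave the TMM factors and the biological CV, DESeq2 1.42.0 the alternative size factors, and Python 3.11.15, pandas 2.3.3 and numpy 2.4.6 the rest. Scripts were tested on simulated data. Some genes that the rule would name are not reported here, but they remain in counts over lists.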

Additional observations from a re-analysis of the deposited data

How the results depend on the processing

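No paired analysis was possible because only 1 group was described. The share of counts held by the 100 most abundant genes moved from 16.5% to 16.3% without ribosomal protein genes in the total, and the 100 genes highest per length held 23.9% of TPM. The median CV moved from 3.48% to 4.27% with a minimum of 1 CPM and to 6.98% with no minimum beyond 1 count in every library. The edgeR common biological CV, another measure, was 8.77%. Leaving out each replicate in turn gave 2.79% to 2.88%, from 2 libraries each. Leaving out ribosomal protein genes raised Ctla4 to 547 and Gzmb to 1036 CPM, from 519 and 983 CPM. The remaining 55 values under planned and added alternatives moved by less than the spread between replicates, or by less than 1.5 times for counts of genes. Alternatives chosen after seeing the data were the removal of genes that share sequence, which gave a median CV of 3.36%, the recounts of the 3 library patterns, and the longest transcript as length. The last moved Gzmb from 2333 to 1740.0 TPM and Ctla4 from 759 to 682 TPM, and put Tnfrsf4 above Gzmb in the Treg list, while no other list changed its highest member. In the 28 lists with 15 leading neighbour pairs, 7 (ribosomal proteins) to 14 kept their order: 8 in the respiratory chain and 9 in the lists of transcription factors, T cell receptor, tricarboxylic acid cycle, amino acid and cell cycle genes. Depth limits genes near 3 counts per library.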
